A study of Glycine max with 54 samples.

Results

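Vegetative storage proteins are abundant glycoproteins that soybean leaves keep in the vacuole as a store of nitrogen, and they are related in sequence to acid phosphatases. The pair of proteins is known as VSPA and VSPB, and their transcripts accumulate in leaves after wounding or treatment with jasmonate, the hormone of the jasmonic acid (JA) pathway. Here the 2 genes were taken by a fixed list of identifiers, GLYMA07G01730 (VSPA, chromosome 7) and GLYMA08G21410 (VSPB, chromosome 8), out of 53971 loci in the count files, of which 48764 were annotated genes. The files give identifiers without gene names. RefSeq (Glycine_max_v4.0) lists VSPA on chromosome 7 and a gene with the synonym VSPB on chromosome 8, and none of its 59048 genes matched the files by identifier, so the names rest on the list and on the chromosome.

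RNA-seq was performed on the caged areas of leaflets from seedlings of 3 soybean genotypes, the susceptible Dongnong47, the antixenotic P203 and the antibiotic P746. Antixenosis is resistance that acts on the choice and feeding of the insect, and antibiosis is resistance that acts on its growth and survival. In infested seedlings each leaflet of the trifoliolate leaf carried 6 soybean aphids in a cage, and mock seedlings had the same cage without aphids. Leaves were taken at 24, 48 and 96 h after infestation (HAI) with 3 libraries per group, which made 18 groups and 54 libraries, and all groups were grown in the same chamber conditions.

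The libraries held 16596420 to 34982780 counts. In 3 libraries the levels of genes that separated the genotypes in mock leaves at 24 HAI went against the label: the library labelled Dongnong47 infested at 96 HAI replicate 1 (6.25% Dongnong47-like of 80 marker genes between Dongnong47 and P203), the library labelled P746 infested at 48 HAI replicate 3 (80.0% Dongnong47-like of the same genes) and the library labelled P746 infested at 24 HAI replicate 1 (96.1% P203-like of 77 marker genes between P203 and P746). The libraries labelled P746 at 48 and 96 HAI were 57.1% to 97.4% P203-like by those 77 genes, and infested P746 at 24 HAI replicate 3 was 49.4%, so P746 below means the label. By the same genes 13 libraries labelled P746, the one at 24 HAI and all 12 of 48 and 96 HAI, were thus more P203-like than P746-like, and the values given below without the libraries that went against their labels leave out only the 3 named above and keep the rest of these. With all 14 such libraries left out, no library of P746 remains at 48 or 96 HAI, so the comparisons of P746 at these times have no value without them. Loci assembled by the authors' software in each library were compared by their identifiers only, not by position. These identifiers were shared at a median of 1.58% between infested and mock libraries at 96 HAI, against 60.6% at 24 HAI and 51.9% at 48 HAI. Infested libraries at 96 HAI shared a median of 51.1% with infested libraries at 48 HAI, whereas mock libraries at 96 HAI shared 1.48% with mock libraries at 48 HAI and 1.38% with those at 24 HAI. Libraries at 48 HAI shared 1.29% (infested) and 1.31% (mock) with those of the same treatment at 24 HAI. By the pairs compared, the 24 HAI libraries, the mock libraries of 96 HAI, and the 48 HAI libraries with the infested ones of 96 HAI thus stood apart from each other. Infestation and these sets cannot be told apart at 96 HAI, nor can time and the sets in any step of 48 over 24 HAI or in the mock step of 96 over 48 HAI. The genes of chromosomes 14 to 20 with ample counts lacked a value less often in infested than in mock libraries at 96 HAI (median 6.51% of these genes in infested and 45.1% in mock libraries) but more often at 24 HAI (8.85% in infested and 0.137% in mock libraries), and both VSP genes lie outside these chromosomes.

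VSPA was listed in all 54 libraries and ranged over 2.09 to 7283 CPM (the counts of a gene per 1000000 counts of its library), with a median of 159 CPM. At its highest it held 0.728% of all counts of a library, ranked 3 among the annotated genes, and it was among the 100 most abundant genes in 14 libraries. VSPB ranged over 0 to 635 CPM with a median of 11.3 CPM, had no value in 1 library (P203 mock at 96 HAI, replicate 3), and ranked 114 at best. CPM does not account for gene length, so the levels of the 2 genes are not compared with each other. In these bulk leaf samples, fewer cells of a type and less RNA per cell cannot be told apart.

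Whether aphids changed the level of the VSP genes was examined first at 96 HAI, where both genes were higher in infested than in mock leaves over the 3 genotypes. Over the 9 infested libraries VSPA had a lowest level of 21.3 CPM, a median of 627 CPM and a highest level of 6290 CPM, against a lowest of 2.09, a median of 20.8 and a highest of 67.6 CPM over the 9 mock libraries. VSPB had 3.89, 58.7 and 398 CPM (lowest, median and highest) in infested leaves, against 0, 0.489 and 2.70 CPM in mock leaves. Of the infested libraries, 8 of 9 lay above every mock library in VSPA and 9 of 9 in VSPB. The share of all loci whose groups lay apart in this way was not counted. Overlap of groups, here and below, is thus a description of levels only. With genotype as a term in the model, the log2 fold change of infested over mock was 5.94 (SE 0.95) for VSPA and 6.99 (SE 1.06) for VSPB, with adjusted p-values of 0.000333 and 0.000214 (edgeR quasi-likelihood test, Benjamini-Hochberg). A gene was called when the adjusted p was under 0.05 and the log2 fold change was at least 1 in size, and by that rule 15.7% of all loci tested were called at 96 HAI. Both calls held in each of the 18 fits that left out 1 library, with 5.44 to 6.29 for VSPA and 6.24 to 7.80 for VSPB. Without the library labelled Dongnong47 infested at 96 HAI replicate 1 the values were 5.93 and 7.06. Without that library and all 6 of P746 at 96 HAI, an alternative chosen after seeing the data that left 11 libraries, both were still called, at 5.91 (adjusted p = 0.0177) for VSPA and 7.49 (SE 1.34, adjusted p = 0.00599) for VSPB. Each of these fits compares infested with mock libraries of different sets of assembled loci. None of them can therefore tell infestation from the sets at 96 HAI.

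Within single genotypes the differences at 96 HAI had the same sign, but each gene was called in only 1 genotype. In Dongnong47, VSPA had 2083, 6290 and 150 CPM in infested leaves, against 33.3, 5.07 and 37.1 CPM in mock leaves. The groups did not overlap. The log2 fold change of 7.38 (SE 1.68) missed the threshold, with an adjusted p of 0.0510. In P203, VSPA had 379, 627 and 21.3 CPM in infested leaves, against 20.8, 24.9 and 2.09 CPM in mock leaves. These groups overlapped, because infested replicate 3 was below the highest mock library, and the log2 fold change was 4.42 (SE 1.42, adjusted p = 0.133). In P746, VSPA had 575, 2863 and 1486 CPM in infested leaves, against 67.6, 16.5 and 16.4 CPM in mock leaves. These groups did not overlap, and VSPA was called higher, with a log2 fold change of 5.97 (SE 1.02, adjusted p = 0.0353).

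VSPB did not overlap between infested and mock leaves at 96 HAI in any genotype, though how many of all loci did the same was not counted. In Dongnong47 it had 58.7, 398 and 3.89 CPM in infested leaves, against 0.489, 0.220 and 1.91 CPM in mock leaves, with a log2 fold change of 7.97 (SE 2.0, adjusted p = 0.0685). In P203 it had 30.2, 53.1 and 69.2 CPM in infested leaves, against 0.686, 0.700 and 0 CPM in mock leaves, where it rested on 15, 14 and 0 counts. This was the tightest of the infested groups at 96 HAI, and VSPB was called higher there, with a log2 fold change of 6.70 (SE 1.24, adjusted p = 0.0466). In P746 it had 20.4, 101 and 62.7 CPM in infested leaves, against 2.70, 0.213 and 0.0519 CPM in mock leaves, with a log2 fold change of 6.26 (SE 1.64, adjusted p = 0.112). Among all loci at 96 HAI, 9.26% were called in Dongnong47, 4.98% for P203 and 4.85% for P746.

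**Figure D1:**
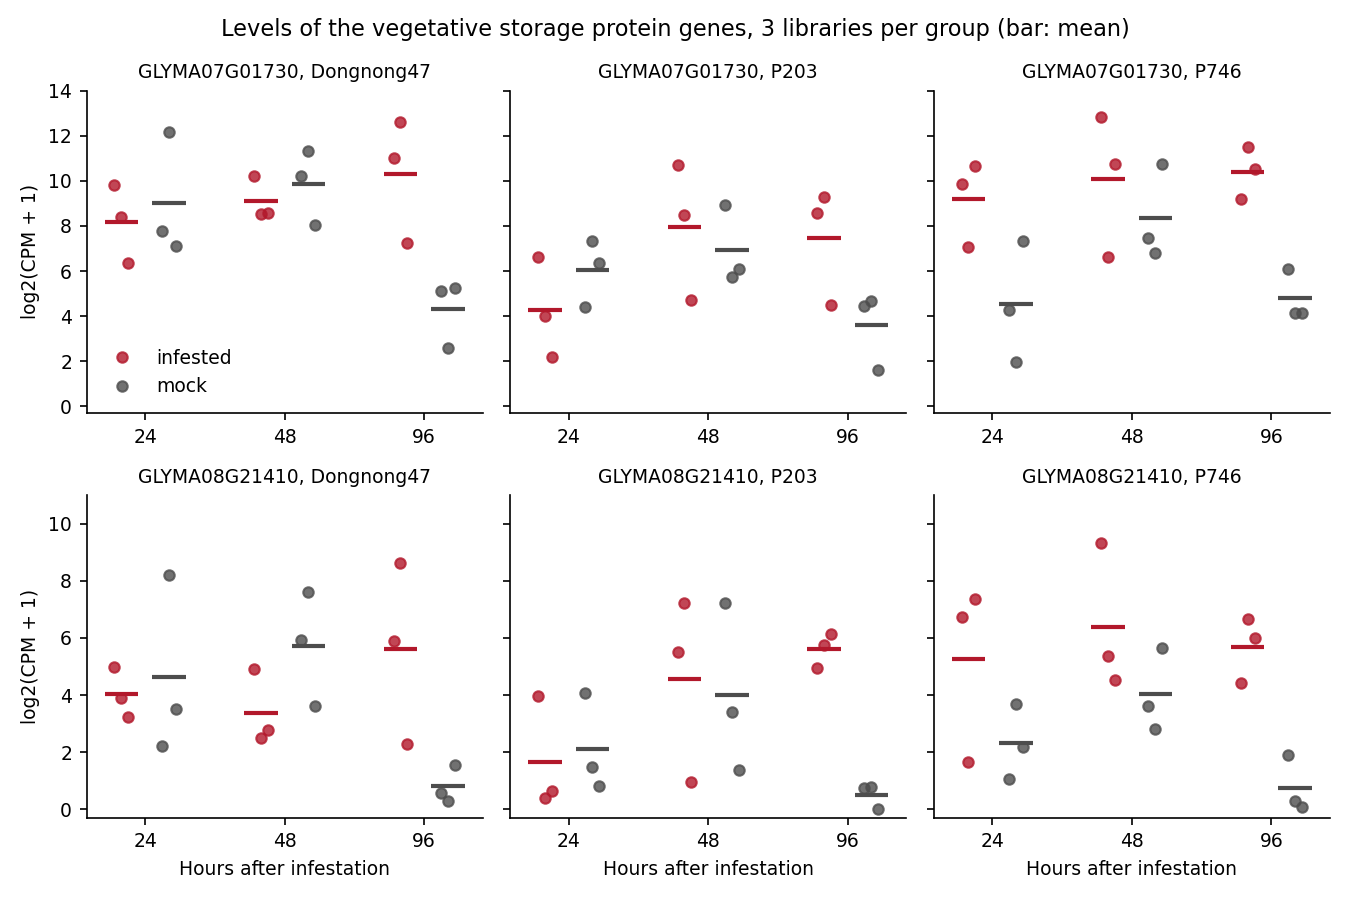
Levels of VSPA (GLYMA07G01730, top) and VSPB (GLYMA08G21410, bottom) as log2(CPM + 1) in each of the 54 libraries, by genotype and hours after infestation, infested in red and mock in grey, with the mean of 3 libraries as a bar. The mock libraries at 96 HAI are low in all 3 genotypes, at up to 67.6 CPM for VSPA and up to 2.70 CPM for VSPB.

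The calls in single genotypes depended on the processing and on single libraries. The call of VSPA in P746 was lost with the replicate number as a block (6.36) and on chromosomes 1 to 13 alone (5.97), and that of VSPB in P203 was lost with the block (7.01) and without the filter on low counts (6.72). The call of VSPA in P746 was kept only when mock replicate 1 was left out (log2 fold change 7.14), and was lost when any of the other 5 libraries was left out (5.47 to 6.30). The call of VSPB in P203 was kept only without mock replicate 3, the library with no value (6.17), and was lost without any of the other 5 (6.47 to 7.16). VSPA in Dongnong47 was called only without infested replicate 3 (7.95), and VSPB in P746 only without mock replicate 1 (9.26). In Dongnong47, leaving out infested replicate 1, which went against its label, gave 7.62 for VSPA and 8.41 for VSPB, with adjusted p-values of 0.0959 and 0.105.

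At 24 HAI no difference between infested and mock leaves was called for either gene, and the groups overlapped in all 3 genotypes. VSPA had 908, 335 and 80.1 CPM in infested Dongnong47, against 216, 4583 and 137 CPM in mock Dongnong47 (log2 fold change -1.72, SE 1.66). It had 98.6, 14.9 and 3.54 CPM in infested P203, against 20.01, 159 and 81.7 CPM in mock P203 (-1.50, SE 1.19). It had 927, 134 and 1607 CPM in infested P746, against 18.5, 2.97 and 159 CPM in mock P746 (3.39, SE 1.59). Only in P746 was the fitted difference above 0, and its lowest infested library was below the highest mock library. VSPB had 30.7, 13.8 and 8.40 CPM in infested Dongnong47, against 3.63, 295 and 10.5 CPM in mock Dongnong47 (-2.42, SE 1.68). It had 14.5, 0.305 and 0.541 CPM in infested P203, against 15.9, 1.78 and 0.778 CPM in mock P203 (-0.69, SE 1.64). It had 105, 2.15 and 165 CPM in infested P746, against 1.10, 12.02 and 3.50 CPM in mock P746 (3.51, SE 1.53). The adjusted p-values ran from 0.484 to 0.9999. The negative differences in Dongnong47 rested on mock replicate 2, the highest mock library of both genes. Without it they became 1.19 for VSPA and 1.28 for VSPB, neither of them called. In P746, without infested replicate 1, whose markers went against the label, the values were 3.39 and 3.43. Of all loci at 24 HAI, 1% were called in Dongnong47, and 0% in both P203 and P746 (964 and 3773 loci in P203 and P746 had an unadjusted p under 0.05, and DESeq2 called 104 and 2441).

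At 48 HAI the groups overlapped again in all genotypes and neither gene was called. VSPA had 1191, 372 and 382 CPM in infested Dongnong47, against 1184, 2544 and 262 CPM in mock Dongnong47 (log2 fold change -1.52, SE 0.86, adjusted p = 0.317). It had 1651, 361 and 25.6 CPM in infested P203, against 491, 52.9 and 66.6 CPM in mock P203 (1.92, SE 1.51). It had 7283, 97.5 and 1716 CPM in infested P746, against 175, 112 and 1733 CPM in mock P746 (1.77, SE 1.78). The highest level of VSPA in the series, in infested replicate 1 of P746, thus stood beside a library of the same group that was below every mock library of that genotype. VSPB had 29.0, 4.59 and 5.81 CPM in infested Dongnong47, against 59.8, 192 and 11.4 CPM in mock Dongnong47 (-3.20, SE 1.20, adjusted p = 0.158). It had 44.8, 150 and 0.939 CPM in infested P203, against 150, 9.51 and 1.58 CPM in mock P203 (0.38, SE 1.89). It had 635, 40.1 and 21.9 CPM in infested P746, against 11.3, 6.01 and 48.9 CPM in mock P746 (3.08, SE 1.63). Without infested replicate 3 of P746, whose markers went against the label, the values in P746 were 2.1 for VSPA and 3.65 for VSPB. The P746 libraries kept were still 89.6% to 96.1% P203-like by their markers. The background of calls was 5.35% in Dongnong47, 0.0655% in P203 and 0% in P746 (2192 loci of P746 had an unadjusted p under 0.05, and DESeq2 called 411).

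Over the 3 genotypes together, the log2 fold change of infested over mock at 24 HAI was -0.29 (SE 1.25) for VSPA and -0.13 (SE 1.39) for VSPB, and at 48 HAI it was 0.82 (SE 1.05) and 0.19 (SE 1.45), none of them called. The background was 0.833% at 24 HAI and 1.83% at 48 HAI. Without the libraries that went against their labels the values were -0.34 and -0.20 at 24 HAI, and 0.87 and 0.24 at 48 HAI. Without all 6 libraries of P746 at 48 HAI they were 0.17 (SE 1.19) and -1.42 (SE 1.51), neither called. The errors at both times leave room for changes of several-fold in either direction. In total each gene was called in 1 of the 9 comparisons within a genotype and in 1 of the 3 over the genotypes.

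**Figure D2:**
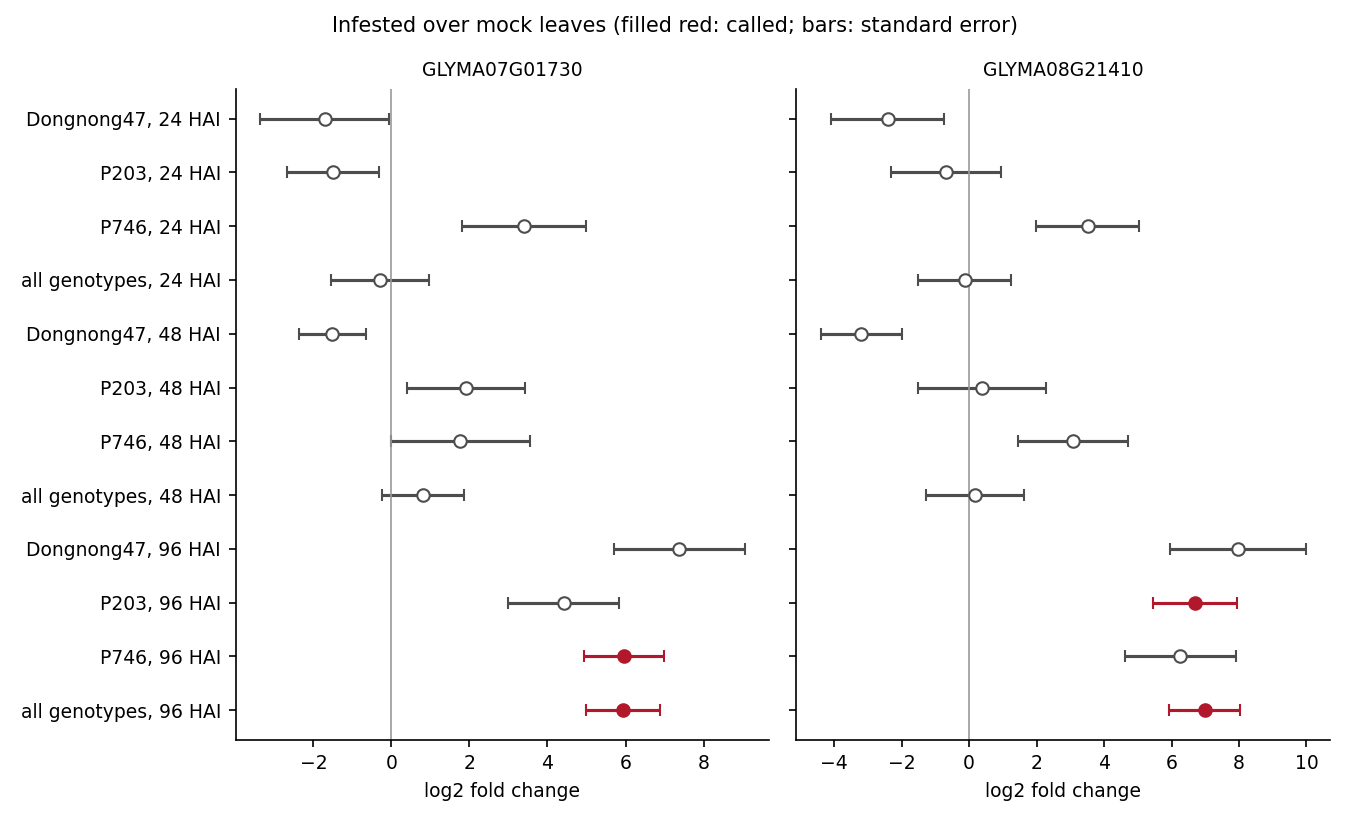
Log2 fold change of infested over mock leaves for VSPA (left) and VSPB (right) in each genotype and over all genotypes at 24, 48 and 96 HAI, with the standard error as a bar and called values filled in red. At 96 HAI all 8 values lie between 4.42 and 7.97, and at 24 and 48 HAI none is called.

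To see in which treatment the levels moved, each later time point was set over the earlier one within a genotype and a treatment. The only calls were in mock leaves of Dongnong47 at 96 over 48 HAI, where both genes fell. VSPA had 33.3, 5.07 and 37.1 CPM at 96 HAI, against 1184, 2544 and 262 CPM at 48 HAI, and VSPB had 0.489, 0.220 and 1.91 CPM at 96 HAI, against 59.8, 192 and 11.4 CPM at 48 HAI. These groups did not overlap. The log2 fold change was -6.52 (SE 1.22, adjusted p = 0.0190) for VSPA and -7.39 (SE 1.47, adjusted p = 0.0224) for VSPB, and 18.9% of all loci were called in that comparison. The call of VSPA was lost when mock replicate 2 of 48 HAI or mock replicate 1 or 3 of 96 HAI was left out (-5.63, -6.70 and -6.94), and the call of VSPB held only when mock replicate 3 of 48 HAI or of 96 HAI was left out (range over the 6 fits -8.74 to -6.07). In mock leaves of P203 the same step was -3.79 (SE 1.23, adjusted p = 0.156) for VSPA and -6.91 (SE 2.19, adjusted p = 0.151) for VSPB, with 3.71% of loci called. Left out in turn, single libraries moved these to between -4.25 (without mock replicate 2 of 48 HAI) and -2.20 for VSPA and between -7.48 (without mock replicate 3 of 48 HAI) and -3.78 for VSPB, the smallest both without mock replicate 1 of 48 HAI. In mock leaves of P746 it was -4.79 (SE 1.58, adjusted p = 0.0974) and -4.85 (SE 1.79, adjusted p = 0.124), with 12.9% of loci called. There the values ran between -5.97 and -2.13 for VSPA and between -7.85 and -3.11 for VSPB (without mock replicate 1 of 96 HAI and without mock replicate 3 of 48 HAI). All these mock steps cross the sets of assembled loci described above.

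In infested leaves no step of 96 over 48 HAI was called. VSPA differed by 2.40 (SE 1.21) in Dongnong47, -1.27 (SE 1.60) in P203 and -0.57 (SE 1.33) in P746, and VSPB by 3.80 (SE 1.61), -0.58 (SE 1.32) and -1.63 (SE 1.29). These infested libraries shared about as many identifiers of assembled loci with those of 48 HAI (median 51.1%) as with each other (52.6%), unlike the mock libraries. Without the libraries that went against their labels, the values were 2.60 and 4.20 in Dongnong47 and -0.86 and -2.16 in P746 (VSPA first). Of all loci, 2.44% were called in Dongnong47, 0.0615% in P203 and 0% in P746 (1611 loci of P746 had an unadjusted p under 0.05). The negative values turned when a single library of 48 HAI was left out. VSPA in P203 became 0.66 without infested replicate 1, VSPB in P203 became 0.76 without infested replicate 2, and in P746 they became 1.20 and 1.09 without infested replicate 1, none of them called. Between 48 and 96 HAI a change was thus called for the mock leaves of Dongnong47 and for no infested leaves. The mock and infested steps were not tested against each other, and only the mock step crosses the sets of assembled loci.

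The step of 48 over 24 HAI was not called for either gene, and in both treatments it crosses 2 of the sets of assembled loci (1.29% shared in infested and 1.31% in mock libraries). In infested leaves VSPA differed by 0.065 (SE 1.10) in Dongnong47, 4.12 (SE 1.75, adjusted p = 0.196) in P203 and 1.77 (SE 1.54) in P746, and VSPB by -0.83 (SE 1.02), 3.61 (SE 1.99) and 1.4 (SE 1.68). In mock leaves VSPA differed by -0.17 (SE 1.39), 0.67 (SE 1.05) and 3.28 (SE 1.88) in the same order, and VSPB by -0.080 (SE 1.60), 2.48 (SE 1.83) and 1.78 (SE 1.22). Of all loci, 32.5%, 7.36% and 0% were called in infested leaves of Dongnong47, P203 and P746 (6586 loci of P746 had an unadjusted p under 0.05), and 4.84%, 6.97% and 8.47% in mock leaves. Without the 2 libraries of infested P746 that went against their labels, the step was 1.98 for VSPA and 1.96 for VSPB. Several of these signs rested on 1 library. In infested leaves VSPA in Dongnong47 became -0.80 without infested replicate 1 of 48 HAI (and was also below 0 without infested replicate 2 or 3 of 24 HAI), VSPB in Dongnong47 became 0.31 without infested replicate 1 of 24 HAI, and VSPB in P746 became -1.39 without infested replicate 1 of 48 HAI. In mock Dongnong47 the values became 2.74 for VSPA and 3.61 for VSPB without mock replicate 2 of 24 HAI (VSPA also turned without mock replicate 3 of 48 HAI, and VSPB without mock replicate 1 or 3), and in mock P203 they became -0.91 and -0.63 without mock replicate 1 of 48 HAI.

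**Figure D3:**
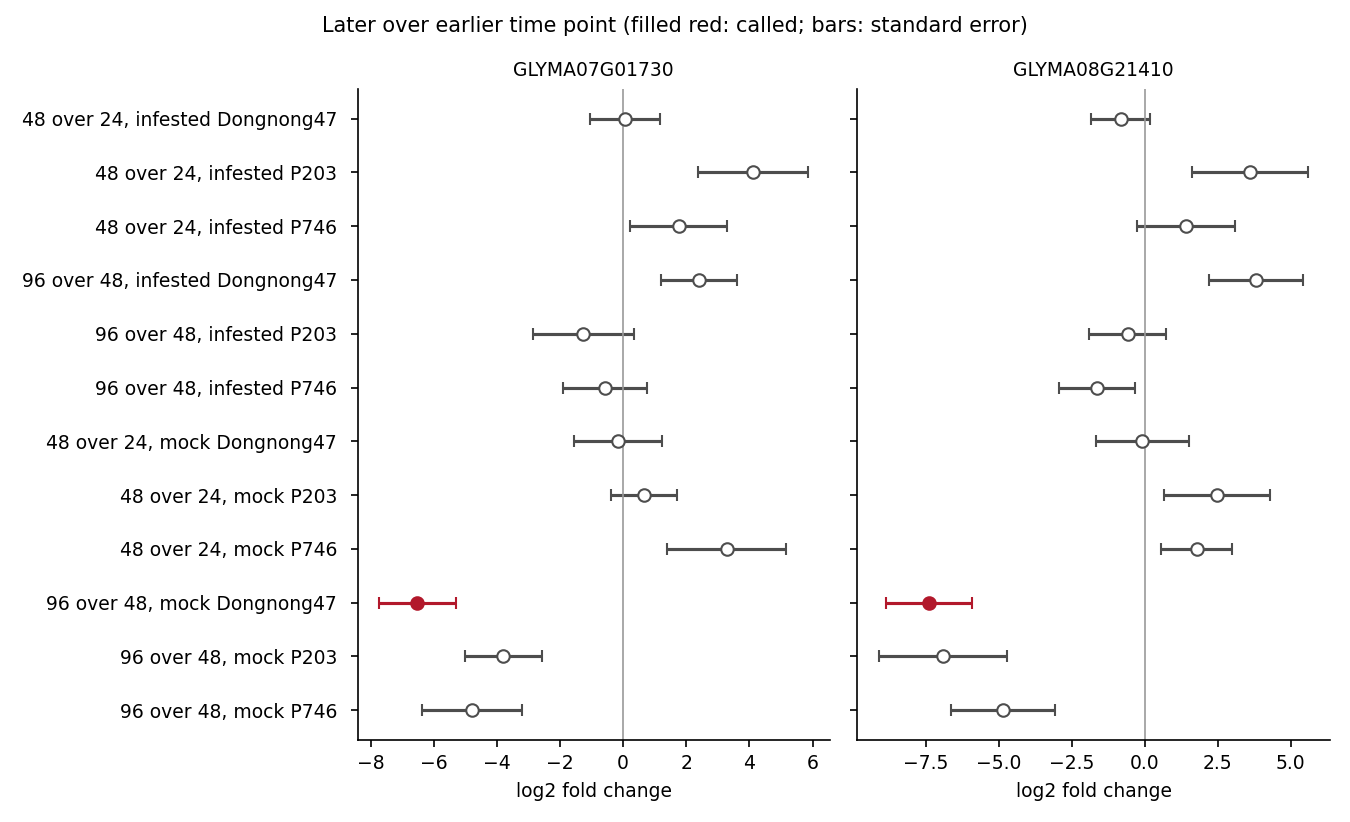
Log2 fold change of each later over the earlier time point (48 over 24 and 96 over 48 HAI) for VSPA (left) and VSPB (right) in infested and mock leaves of each genotype, with the standard error as a bar and called values filled in red. The 3 values of mock leaves at 96 over 48 HAI lie between -6.52 and -3.79 for VSPA and between -7.39 and -4.85 for VSPB, and only Dongnong47 is called.

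The resistant genotypes were next compared with the susceptible Dongnong47 in mock leaves. VSPA was not called in any of the 6 comparisons, though 2 had an unadjusted p under 0.05 and DESeq2 called 3. VSPB passed the filter on low counts in 5 of the 6 and was not called in any (0 at an unadjusted p under 0.05, 0 by DESeq2). At 24 HAI the log2 fold change of P203 over Dongnong47 was -4.16 (SE 1.54, adjusted p = 0.829) for VSPA and -3.92 (SE 1.89) for VSPB, and that of P746 over Dongnong47 was -4.75 (SE 1.98, adjusted p = 0.619) and -4.18 (SE 1.76). These values rested in part on mock replicate 2 of Dongnong47 at 4583 CPM of VSPA and 295 CPM of VSPB, and without it they were -1.22 and -0.22 for P203 and -1.87 and -0.51 for P746. At 48 HAI P203 differed by -3.33 (SE 1.17, adjusted p = 0.178) and -1.36 (SE 1.62), and P746 by -1.22 (SE 1.38) and -2.28 (SE 1.29). Left out in turn, single libraries moved VSPB in P203 between -4.47 (without P203 mock replicate 1) and -0.047 (without Dongnong47 mock replicate 2), and in P746 they moved VSPA between -3.84 and -0.33 and VSPB between -3.97 and -0.95 (without P746 mock replicate 3 and without Dongnong47 mock replicate 2). At 96 HAI, where all mock leaves were low, P203 differed by -0.57 (SE 0.99) and -0.84 (SE 1.26) and P746 by 0.49 (SE 0.97) for VSPA. VSPB in P203 became 0.52 without Dongnong47 mock replicate 3, and VSPA in P746 became -0.68 without P746 mock replicate 1 and fell just below 0 without Dongnong47 mock replicate 2. The background of calls for P203 over Dongnong47 was 0.236%, 3.39% and 0.594% at 24, 48 and 96 HAI, and for P746 over Dongnong47 it was 0.415%, 12.2% and 0.802%.

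The response to aphids was then compared between genotypes, as the log2 fold change of infested over mock in P203 or P746 minus that in Dongnong47. VSPA was not called in any of the 6 differences (0 at an unadjusted p under 0.05, 0 by DESeq2), and VSPB in none either (2 at an unadjusted p under 0.05, 1 by DESeq2). The largest was that of VSPB in P746 at 48 HAI, at 6.31 (SE 2.21, unadjusted p = 0.0176, adjusted p = 0.685), followed by VSPB in P746 at 24 HAI at 5.85 (SE 2.42, unadjusted p = 0.0370, adjusted p = 0.688). Without the libraries that went against their labels these were 6.84 and 5.68. The P746 libraries kept at 48 HAI were still 89.6% to 96.1% P203-like by their markers. With single libraries left out in turn, these differences ran between 3.52 (without P746 infested replicate 1) and 8.0 (without P746 mock replicate 3) at 48 HAI, and between 2.24 (without Dongnong47 mock replicate 2) and 7.08 (without P746 mock replicate 2) at 24 HAI. VSPA in P746 differed by 5.02 (SE 2.43) at 24 HAI and 3.31 (SE 2.1) at 48 HAI, with 2.20 (without Dongnong47 mock replicate 2) to 7.43 and 1.47 (without P746 infested replicate 1) to 5.94 over such fits, the highest both without P746 mock replicate 3. In P203 VSPA differed by 0.17 (SE 2.14) and 3.43 (SE 1.88), and VSPB by 1.72 (SE 2.49) and 3.59 (SE 2.46), those at 48 HAI running over 1.5 (without P203 infested replicate 1) to 5.06 for VSPA and 2.25 (without P203 infested replicate 2) to 6.74 for VSPB, the highest both without P203 mock replicate 1. At 96 HAI the differences were -2.97 (SE 1.97) and -1.29 (SE 2.03) in P203 and -1.45 (SE 1.63) and -1.75 (SE 2.21) in P746, for VSPA and VSPB in that order. In P203 at 24 HAI the signs turned to -2.73 for VSPA and -1.96 for VSPB without Dongnong47 mock replicate 2, and to -1.49 and -1.48 without P203 infested replicate 1, and that of VSPA also turned in 3 other such fits. At 96 HAI VSPB became 1.08 in P203 and 0.61 in P746 without Dongnong47 infested replicate 2, and 1.26 in P746 without P746 mock replicate 1. With such errors a difference of several-fold between genotypes was not detectable in these libraries. Among all loci 0.0441%, 0.0822% and 0.173% were called for P203 minus Dongnong47 at 24, 48 and 96 HAI, and 0.0136%, 0.0112% and 0.173% for P746 minus Dongnong47.

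The spread between replicates was a property of both genes in nearly every group. The pooled standard deviation of log2(CPM + 1) within groups was 2.12 for VSPA and 2.06 for VSPB, against a median of 0.44 over the 16416 annotated genes that lie on chromosomes 1 to 13 and average 5 CPM or more, which put them at places 50 and 61 from the most variable. Within a group the highest library of VSPA was between 3.21-fold and 74.7-fold above the lowest, the first in infested Dongnong47 and the second in infested P746, both at 48 HAI. In the order of the 18 group means of log2(CPM + 1), infested P746 and infested Dongnong47 at 96 HAI were first and second for VSPA (10.4 and 10.3), and mock P203 at 96 HAI was last (3.59). For VSPB infested P746 at 48 HAI was first (6.40), and the mock groups of Dongnong47, P746 and P203 at 96 HAI were the last 3 (0.80, 0.75 and 0.51). In 0 of the 17 pairs of neighbours in either order was the gap larger than the larger standard deviation of the pair.

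The 2 genes moved together across libraries. Within 24 HAI Pearson's r of log2(CPM + 1) was 0.718 over 18 libraries (Spearman's rho 0.651, permutation p = 0.00084 and 0.0043, adjusted over 8 relations 0.0011 and 0.0049), and within 48 HAI it was 0.759 (rho 0.715, permutation p = 0.00024 and 0.0012, adjusted 0.00038 and 0.0020). Leaving out the 2 libraries farthest from the median of VSPA gave 0.754 and 0.60. At 96 HAI infested and mock libraries fell into separate clusters, so r was taken in each. It was 0.541 in 9 infested libraries (rho 0.617, exact permutation p = 0.13 and 0.086) and 0.790 in 9 mock libraries (rho 0.900, exact permutation p = 0.015 and 0.0020, adjusted 0.017 and 0.0027), and 0.906 and 0.908 without the 2 farthest. After the mean of each group was taken away, the deviations of the 54 libraries had an r of 0.667 (rho 0.657, permutation p = 1e-05 for both, the smallest that 100000 resamples can give, adjusted 2.7e-05 and 2e-05), and 0.643 without the 2 farthest. The permutations ran over all libraries of a relation without regard to group. Libraries of a group share conditions, and deviations within a group are tied to each other, so these p-values may be too small. A replicate that was high in one gene was thus mostly high in the other. The genes are close relatives, and the part that reads of one gene counted for the other have in this relation was not tested.

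**Figure D4:**
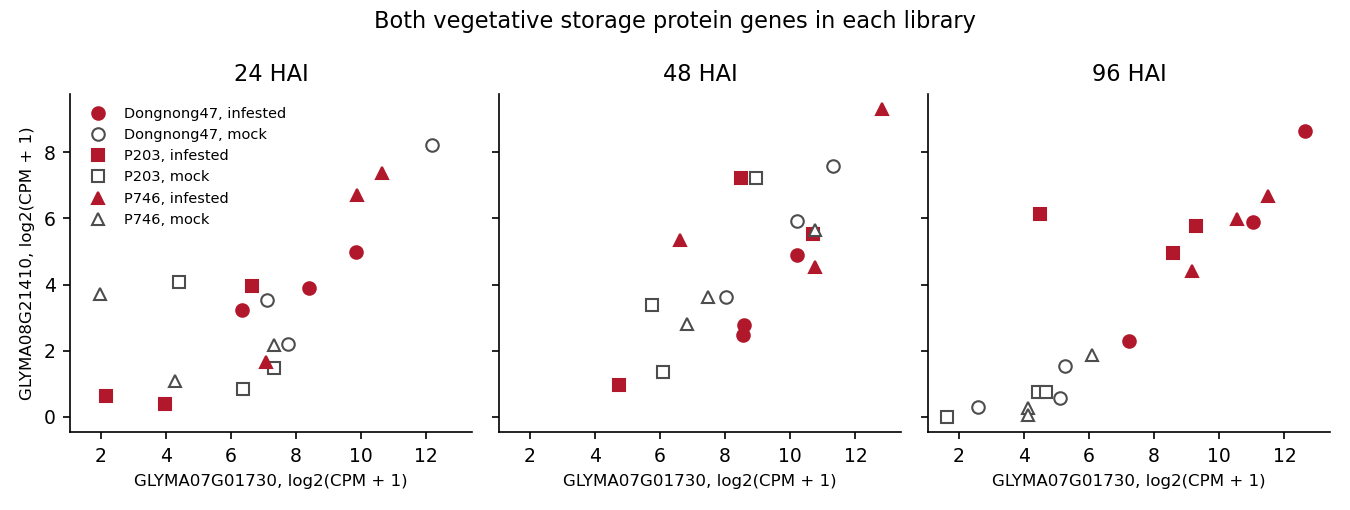
VSPB against VSPA as log2(CPM + 1) in each library at 24, 48 and 96 HAI, with infested libraries filled in red, mock libraries open, and the genotype as the marker shape. The mock libraries at 96 HAI lie in the lower left, and infested P203 replicate 3 stands off the others at 21.3 CPM of VSPA and 69.2 CPM of VSPB.

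Some libraries departed from the shared pattern. Per 100 counts of VSPA there was a median of 4.17 counts of VSPB over the 54 libraries, and all 18 libraries of Dongnong47 lay between 1.24 and 10.5. In P203 the ratio ranged over 0 to 324 with 4 libraries above 20, and in P746 over 0.316 to 405 with 2 libraries above 20. VSPB had more counts than VSPA in 2 libraries, mock P746 at 24 HAI replicate 2 (267 counts of VSPB and 66 of VSPA) and infested P203 at 96 HAI replicate 3 (1284 and 396 counts). Both carried the label of a resistant genotype, as did 18 libraries of P203 and 18 of P746 in all. The ratio was not tested between genotypes. Since the genes are close relatives, the assignment of reads between them by the authors' counting adds an uncertainty to each ratio. It also bears on the levels and fold changes of VSPB, the less counted gene in most libraries, and was not tested.

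The other genes of the JA pathway were taken from a list of 49 genes in the study, which chose them on these libraries, so their direction is not independent evidence. Among its biosynthesis, signalling, receptor and response genes, 7 of 48 tested were called higher and 1 lower in Dongnong47 at 24 HAI, where 1% of all loci were called (346 of 34534), the comparison in which the VSP genes were not called and had fitted values of -1.72 and -2.42. The sign of these VSP values rested on mock replicate 2, without which they were 1.19 and 1.28, also not called. DAD1 (GLYMA01G41450), a phospholipase that releases the fatty acid precursor of JA in Arabidopsis, had 104, 150 and 160 CPM in infested leaves, against 11.4, 11.3 and 10.5 CPM in mock leaves (log2 fold change 3.34, SE 0.24, adjusted p = 0.00849). AOS (GLYMA17G36530), allene oxide synthase, was higher by 1.69, and AOC4 (GLYMA13G07490), allene oxide cyclase, by 2.32. The JAZ proteins, repressors that are degraded when the hormone is perceived and whose genes the hormone induces, were higher at JAZ1 (GLYMA13G17180, 3.66) and at 2 JAZ2 genes (GLYMA01G41290, 3.91, and GLYMA15G19840, 2.98). JIN1 (GLYMA09G33730), the MYC2 transcription factor of JA responses in Arabidopsis, had 129, 316 and 295 CPM in infested leaves, against 26.7, 36.9 and 43.1 CPM in mock leaves (2.47, SE 0.25, adjusted p = 0.0202). JAR1 (GLYMA19G44310), which joins JA to isoleucine, was called lower, but it was listed in none of the 3 infested libraries and lacked a value in 38 of the 54 libraries, so it is given with no fold. AOS (GLYMA17G36530), JAZ2 (GLYMA15G19840) and JAR1 (GLYMA19G44310) lie on chromosomes 14 to 20, where 4.45%, 26.6% and 33.8% of the genes with ample counts had no value in the 3 infested libraries, against 0.137%, 2.89% and 0.0824% in the mock libraries, and the part of this in their values was not tested. DESeq2 called 10 of the list in this comparison. With the replicate number as a block, which the correlation of same-numbered libraries allows in this comparison, 0 of the list were called (13 at an unadjusted p under 0.05) and 0 of all loci. The median log2 fold change of the 48 genes was -0.05, against -0.09 over all loci tested.

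At the later time points the count of list genes called depended on the tool. By edgeR it was 4 and 3 in Dongnong47 at 48 and 96 HAI, against 13 and 15 by DESeq2. In Dongnong47 at 48 HAI, 1 of 46 was called higher and 3 lower, beside 5.35% of all loci called (16 of the list had an unadjusted p under 0.05). LOX2 (GLYMA02G26160), a lipoxygenase, was higher by 5.13, while FAD8 (GLYMA03G07570), a fatty acid desaturase, JAZ3 (GLYMA08G04770) and JAZ12 (GLYMA09G09100) had log2 fold changes of -1.45, -1.78 and -1.37. In Dongnong47 at 96 HAI, 0 of 45 were called higher (15 of the 45 had an unadjusted p under 0.05 in either direction) and 3 lower, with -2.76 for LOX1 (GLYMA10G29490), -2.76 for AOC4 (GLYMA02G11020) and -5.58 for JAZ2 (GLYMA01G41290), beside 9.26% of all loci. With the replicate block 0 of the list were called there too (11 at an unadjusted p under 0.05), and 0 of all loci. In P203 at 96 HAI the only call by edgeR was FAD8 (GLYMA03G07570), at -2.91 (1 of 45 tested, 11 at an unadjusted p under 0.05, 10 by DESeq2, beside 4.98% of all loci), and in P746 at 96 HAI it was LOX1 (GLYMA13G42340), at 2.92 (1 of 46 tested, 9 at an unadjusted p under 0.05, 7 by DESeq2, beside 4.85% of all loci). In P203 at 24 and 48 HAI and in P746 at 24 and 48 HAI no gene of the list was called by edgeR (3, 5, 3 and 6 genes at an unadjusted p under 0.05, and 0, 3, 4 and 1 by DESeq2). The median log2 fold change of the list at 96 HAI was -0.58 in Dongnong47, 0.33 for P203 and 0.14 for P746, against 0.11, 0.04 and 0.10 over all loci.

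Over the 3 genotypes together, 1 of the 49 genes was called higher at 24 HAI (DAD1, GLYMA01G41450, 2.08), beside 0.833% of all loci, and 2 of 48 tested were called lower at 48 HAI (JAZ3, GLYMA08G04770, -1.17, and JAZ12, GLYMA09G09100, -1.30), beside 1.83% of all loci. At 96 HAI 4 of 49 were called higher and 3 lower. The 4 were 3 lipoxygenase genes, LOX1 (GLYMA13G42340, 3.03, SE 0.56, adjusted p = 0.00108), LOX1 (GLYMA07G03910, 3.27) and LOX1 (GLYMA07G00900, 1.52), and the acyl-CoA oxidase gene ACX2 (GLYMA05G31390, 1.72), which the list places among the biosynthesis genes. The 3 were FAD8 (GLYMA03G07570, -1.34), LOX1 (GLYMA10G29490, -1.85) and AOC4 (GLYMA02G11020, -1.54). All 7 were biosynthesis genes, as were 35 of the 49 genes on the list, and the share of all loci called there was 15.7%. DESeq2 called 3, 7 and 11 of the list at 24, 48 and 96 HAI.

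Finally, the genes whose pattern over the 54 libraries was most like that of each VSP gene were listed, by Pearson's r of log2(CPM + 1) over 16416 annotated genes of chromosomes 1 to 13. The libraries share depth, genotype and the sets of assembled loci, so r is a description. For each VSP gene the most similar was the other one, with an r of 0.812. Next for VSPA were GLYMA02G18090 (0.768), GLYMA13G01870 (0.755) and GLYMA06G45360 (0.731), and for VSPB they were GLYMA02G18090 (0.799), LOX1 GLYMA13G42340 (0.749) and GLYMA08G12340 (0.731). LOX1 GLYMA13G42340 had 119, 259 and 237 CPM in infested P746 at 96 HAI, against 43.2, 30.5 and 40.0 CPM in mock P746, with no overlap. In Dongnong47 it had 128, 285 and 6.50 CPM in infested leaves, against 8.21, 10.2 and 36.7 CPM in mock leaves. Infested replicate 3 was the low one, as it was for both VSP genes. This gene was picked by its r over these same libraries, so such likeness follows from the choice and is no separate evidence. The regulators JIN1 (GLYMA09G33730) and JAZ1 (GLYMA13G17180) had an r of -0.27 and -0.21 with VSPA and of -0.07 and 0.07 with VSPB. Over the 8 JAZ genes of the list, r with VSPA ran from -0.49 (JAZ3, GLYMA08G04770) to 0.21 (JAZ2, GLYMA15G19840). With VSPB it ran from -0.24 to 0.46, for the same genes. This JAZ2 gene lacked a value in 8 libraries.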

How the data were processed

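Gene counts of 54 leaf libraries (3 per group) were analysed. Per the study's methods, the authors mapped paired reads with HISAT2 to Glycine_max_v2.1 and counted them per gene with StringTie, and the submitters' processing notes name CASAVA 1.8 and Bowtie. The deposited values are expected counts without normalization, 18.0% to 23.3% of them not whole in a library. They were rounded here, a locus without a value was set to 0, lines without an identifier were left out, and CPM was taken over the total of all loci. Columns of other units were not used.

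Each comparison was fitted on its own groups with edgeR 4.0.16 in R 4.3.3 (TMM scaling, the quasi-likelihood F test, and Benjamini-Hochberg adjustment over all loci that passed filterByExpr, whose count floor was 10 per library and 15 in total), and a gene was called at an adjusted p under 0.05 and a log2 fold change of at least 1 in size. The standard error was taken from the F statistic. Under scaling by total counts, the median log2 ratio of infested over mock within genotypes ran from -0.69 to 0.61. It was taken over 17442 to 20127 genes of chromosomes 1 to 13 above a floor of mean counts. Fold changes are relative to the TMM scale. The study's methods state that the 3 samples of a group were independent, and p-values measure the spread between them. Alternatives were DESeq2 1.42.0, its size factors (RLE), no filter, a replicate block, chromosomes 1 to 13 alone, the adjusted p alone, 1 fit of all 54 libraries, and leaving out each library or the 3 that went against their labels. Leaving out all 14 libraries whose markers matched another genotype was chosen after seeing the data. The scripts were tested on simulated counts. The replicate numbers were checked for pairing by the correlation of deviations from group means, and every correlation was over 0.1 only in Dongnong47 at 24 HAI (0.240 to 0.625) and at 96 HAI (0.101 to 0.361), although no label names a plant or day that libraries share.

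The genes named were both VSP genes, the called JA genes of signalling, receptor or response roles with the 3 most changed called biosynthesis genes of a comparison, and the 3 most similar genes. The extra lipoxygenase, FAD8, AOC4 and ACX2 genes called over the genotypes at 96 HAI were added to complete their count. The members and lists were chosen with earlier results of these data known. No markers of leaf cell types could be checked, since the identifiers carry no names. No sequence is shown.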

Additional observations from a re-analysis of the deposited data

How the results depend on the processing

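The calls of both genes at 96 HAI over the genotypes held under every alternative run. No alternative could separate infestation from the sets of assembled loci at that time. Within genotypes, VSPA was called in 3 comparisons by DESeq2, 2 with RLE size factors, 2 with 1 fit of 54 libraries, 0 with the replicate block and 0 on chromosomes 1 to 13, and VSPB in 4 by DESeq2, 2 with 1 fit, 0 without the filter and 0 with the block. DESeq2 added at 96 HAI VSPA in Dongnong47 (7.39) and P203 (4.43) and VSPB in Dongnong47 (8.0) and P746 (6.26), and VSPB in Dongnong47 at 48 HAI (-3.22). RLE (7.40) and 1 fit (7.37) added VSPA in Dongnong47 at 96 HAI, and 1 fit VSPB (7.99). The call of VSPB in P203 at 96 HAI was lost without the filter (6.72) and with the replicate block (7.01), and that of VSPA in P746 with the block (6.36) and on chromosomes 1 to 13 (5.97). Where the numbers correlated, in Dongnong47, the block gave -1.11 and -0.76 at 24 HAI and 6.64 and 7.16 at 96 HAI, and changed no call of the VSP genes. It turned VSPA at 24 HAI (0.10) and VSPB at 48 HAI (-0.57) over the genotypes, both uncalled. Over time, DESeq2 called 3 steps of each gene, 1 fit 2 of VSPB, and the block 0 of each. DESeq2 called VSPA in 3 genotype comparisons and VSPB in 1 difference of response. Of the JA list, the 17 calls summed over the 9 comparisons within genotypes became 63 by DESeq2 and 0 with the block, while over the genotypes the block called 1, 3 and 7 genes at 24, 48 and 96 HAI, against 1, 2 and 7 without it. Without all 14 libraries whose markers matched another genotype, VSPB over the genotypes at 48 HAI was -1.42, uncalled. The causes were not tested.

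No call within a genotype or over time held in every fit that left out 1 library (0 for each gene). For VSPA the log2 fold change of infested over mock ran over -3.32 to 1.19 in Dongnong47 at 24 HAI, 6.0 to 7.95 at 96 HAI, -0.045 to 3.51 in P203 at 48 HAI, -0.059 to 4.40 and 5.47 to 7.14 in P746 at 48 and 96 HAI, and -0.72 to 1.06 over the genotypes at 24 HAI. For VSPB it ran over -3.53 to 1.28 in Dongnong47 at 24 HAI, -3.89 to 1.68, -0.996 to 3.51 and 6.17 to 7.16 in P203 at 24, 48 and 96 HAI, 5.67 to 9.26 in P746 at 96 HAI, and -1.10 to 1.35 and -0.78 to 1.48 over the genotypes at 24 and 48 HAI. The differences of response of VSPB at 96 HAI ran over -2.63 to 1.08 in P203 and -3.11 to 1.26 in P746. Group means moved by less than 1 SD under both other scales, but these SDs are wide. For VSPA in mock P203 at 24 HAI the mean was 86.9 CPM (SD 69.7), and 130 CPM over the total of chromosomes 1 to 13. Mock leaves at 96 HAI held as few as 0 counts of VSPB, so folds against them are imprecise.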

Other observations

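GLYMA02G18090, which was near the top for both VSP genes, had a highest level of 272 CPM in mock Dongnong47 at 24 HAI replicate 2, the library in which VSPA and VSPB were also far above the other mock libraries of that group. It had 122 CPM in infested P746 at 48 HAI replicate 1, the library with the highest levels of both VSP genes. At 96 HAI it had 19.1, 54.8 and 1.17 CPM in infested Dongnong47, against 0.489, 0 and 1.20 CPM in mock Dongnong47. GLYMA08G12340 had 41.2, 36.9 and 37.9 CPM in infested P203 at 96 HAI, against 0.275, 0.350 and 0.0486 CPM in mock P203. Both genes were picked by their r with the VSP genes over these same libraries, so levels shared with them follow from the choice.

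The repressor gene JAZ2 (GLYMA01G41290) had its highest level in infested Dongnong47 at 24 HAI, with 113, 273 and 257 CPM against 4.53, 14.1 and 17.02 CPM in mock leaves. At 96 HAI it had 0.721, 1.61 and 0.479 CPM in infested Dongnong47, against 14.1, 130 and 65.1 CPM in mock Dongnong47, with infested below mock without overlap. Infested replicate 1 went against its label. At 48 HAI it was low in both treatments, with 1.37, 4.24 and 1.15 CPM in infested and 1.70, 8.14 and 2.38 CPM in mock Dongnong47. In P203 and P746 the groups overlapped at 96 HAI. Infestation and the sets of assembled loci cannot be told apart at 96 HAI, and the share of all loci without overlap was not counted.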
